A study of Mus musculus with 36 samples.

Results

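The genes described here are 9 components and response genes of the transforming growth factor beta (TGF-β) and bone morphogenetic protein (BMP) pathways: Id1, Id2, Id3, Smad7, Skil, Tgfbi, Tgfbr1, Tgfbr2 and Bmpr1a. They are a list of names, fixed with no threshold on their values but with earlier results of these data known. All 9 had a row in both count tables, which hold 20181 genes for Lrig1 GL cells and 22587 genes for Lgr5 GL cells. All 9 also passed the filter on low counts, with 14306 and 18025 genes in all. GL stands for genetically labelled. The cells came from mice of both sexes in which the Lrig1 or the Lgr5 promoter drives EGFP and the tamoxifen-inducible recombinase CreERT2, crossed to a Rosa26 tdTomato reporter with a floxed STOP cassette, and topical 4-hydroxytamoxifen was given once before wounding. Labelled cells and their progeny therefore stay red, and the sorted tdTomato+ cells are a mixed progeny rather than a single cell type. All groups carry the same alleles within a population and received the same labelling. Labelling was done in adult mice 1 week before the first wound. Mice of the later groups were thus older and longer past labelling than those at 0w. No unwounded mice of their age are among these samples, so age and time since labelling cannot be told apart from time after wounding. The groups are unwounded tail skin (0w), 1w, 2w, 4w and 8w after a first full-thickness wound (pw1), and 9w, which is 1w after a second wound over the first (1w pw2). Cells were sorted from a zone that held the wound bed and the hair follicles (HFs) distal to it. Each of the 12 groups has 3 libraries, 36 in all, and the figure legends of the study count mice as n. The labels do not tie libraries to mice, and p-values measure the spread between these samples. With 3 against 3 libraries an exact permutation test of a single value cannot go below p = 0.1, so tests are from models over all genes. Comparisons with 0w share the same 0w libraries.

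TGF-β and BMP ligands bind paired type I and type II receptor kinases, which phosphorylate Smad proteins that enter the nucleus with Smad4 and act on target genes. In skin, BMP signalling is known to hold HF stem cells at rest, and TGF-β signalling shapes keratinocyte growth, migration and matrix production during repair. Among the 9 genes, Tgfbr1 and Tgfbr2 encode the type I and type II receptors for TGF-β, and Bmpr1a encodes a type I BMP receptor. Skil (the co-repressor SnoN) and Smad7 (an inhibitory Smad) restrain the pathway and are themselves induced by it. Id1, Id2 and Id3 encode helix-loop-helix proteins without a DNA-binding domain, and are classical BMP targets. Tgfbi encodes an extracellular matrix protein named for its induction by TGF-β.

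Upstream sequences are shown for Id2, a target gene whose level moved with that of Id1 in Lgr5 GL cells, and for Tgfbi and Tgfbr1, which carry 2 of the main results. RefSeq promoter entries (GRCm38.p6) matched 6 of the 9 genes. From the 250 bases before each RefSeq start, the stretch outside every exon of the GENCODE annotation is given, 5′ to 3′ on the strand of the gene. These are chr12:25096254-25096342 on the minus strand for Id2, which lies in an intron of a longer Id2 transcript, chr13:56609336-56609522 on the plus strand for Tgfbi, and chr4:47352972-47353221 on the plus strand for Tgfbr1, directly before its annotated start. Capitals mark matches to GGCGCC, the core of BMP response elements, and to CAGAC on either strand (GTCTG where it lies on the other strand), a Smad-binding core.
Id2: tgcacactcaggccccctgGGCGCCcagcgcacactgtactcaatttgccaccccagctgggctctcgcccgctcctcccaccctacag
Tgfbi: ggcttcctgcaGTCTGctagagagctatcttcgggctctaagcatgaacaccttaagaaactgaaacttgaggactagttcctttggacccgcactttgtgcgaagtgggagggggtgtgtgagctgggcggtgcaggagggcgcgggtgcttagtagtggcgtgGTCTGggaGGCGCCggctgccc
Tgfbr1: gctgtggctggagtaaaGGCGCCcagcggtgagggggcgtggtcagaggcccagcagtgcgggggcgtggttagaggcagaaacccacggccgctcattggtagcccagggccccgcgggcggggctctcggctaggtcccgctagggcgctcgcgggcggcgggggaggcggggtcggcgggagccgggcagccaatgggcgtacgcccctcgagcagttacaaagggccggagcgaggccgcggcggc

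The 89 bases of Id2 held 1 GGCGCC and 0 CAGAC, where 2.73% and 17.7% of 32851 reference promoters held these motifs in the same stretch. The 187 bases of Tgfbi held 1 GGCGCC and 2 CAGAC, against 6.49% and 34.2% of promoters with at least 1 match. The 250 bases of Tgfbr1 held 1 GGCGCC and 0 CAGAC, against 9.59% and 42.2%. The GC content of these stretches was 67.4% for Id2, 59.4% for Tgfbi and 74.8% for Tgfbr1. The median over the 250 bases of the reference promoters was 52.4%, and the shares were not matched for GC content. Windows that are not shown gave other counts: that of a second RefSeq start of Tgfbr1, at chr4:47385966-47386215, held 0 GGCGCC and 1 CAGAC, that of Tgfbr2 held 0 and 1, and the exon-free part of that of Bmpr1a held 1 and 0. Matches are a description of these letters and say nothing of binding.

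In the GENCODE annotation of GRCm38, all 9 are protein-coding genes. Id1 lies at chr2:152736251-152737410 on the plus strand with 1160 exonic bases, Id2 at chr12:25093799-25097140 on the minus strand with 2438, and Id3 at chr4:136143497-136145755 on the plus strand with 1791. Skil lies at chr3:31095058-31122577 on the plus strand with 9694 exonic bases, Tgfbi at chr13:56609523-56639562 on the plus strand with 3771, and Tgfbr1 at chr4:47353222-47414931 on the plus strand with 6534. Tgfbr2 lies at chr9:116084293-116175360 on the minus strand with 8187 exonic bases, and Bmpr1a at chr14:34410734-34503341 on the minus strand with 6351. Exons of 8 of the 9 genes overlap no other annotated exon. Bmpr1a shares 290 bases, 4.57% of its exonic length, with Gm17110 on the opposite strand, and the libraries do not mark strand.

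Libraries held 765252 to 3365666 counts in Lrig1 GL and 1297798 to 6960537 counts in Lgr5 GL cells. Levels are given as CPM, counts scaled to a common library size with TMM factors within each population, and a count of 3 corresponds to 0.389 to 3.39 CPM. Some libraries stood apart from the rest. The Lrig1 GL libraries at 8w pw1 had 10.9 to 14.4% mitochondrial counts, against 3.15 to 5.38% at 0w, and the mean GC content of their counted genes was 45.4 to 46% against 48.9 to 49.3%. The Lgr5 GL libraries at 4w pw1 held 1297798 to 2116933 counts, among the lowest of that population. In all Lgr5 GL libraries 1 non-coding transcript, Gm12415, took 12 to 52.1% of the counts. The summed level of 7 basal keratinocyte markers was 12100 to 29600 CPM in Lrig1 GL and 9930 to 33000 CPM in Lgr5 GL libraries, with counts for every marker at every time point. Over the Lgr5 GL libraries Krt15 had the highest median of these markers, 10100 CPM, against 4450 for Krt14 and 3910 for Krt5. The summed level of 6 upper HF markers at 0w was 5320 to 6860 CPM in Lrig1 GL and 1720 to 4210 CPM in Lgr5 GL cells, and that of 5 lower HF markers was 1410 to 2370 and 1780 to 3390 CPM, on scales set separately in each table. Of 7 immune cell markers, Cd3e, Cd207, Lyz2, Tyrobp and Fcer1g had no row in either table. Ptprc had counts in 13 of 18 Lrig1 GL and 16 of 18 Lgr5 GL libraries, at up to 16.4 and 33.3 CPM. Cd74 had counts in 6 and 8 libraries, at up to 14.3 and 3.4 CPM. Of 7 fibroblast markers, the 6 in the Lrig1 GL table summed to 7.5 to 116 CPM, and all 7 summed to 129 to 612 CPM in Lgr5 GL cells.

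**Figure D1:**
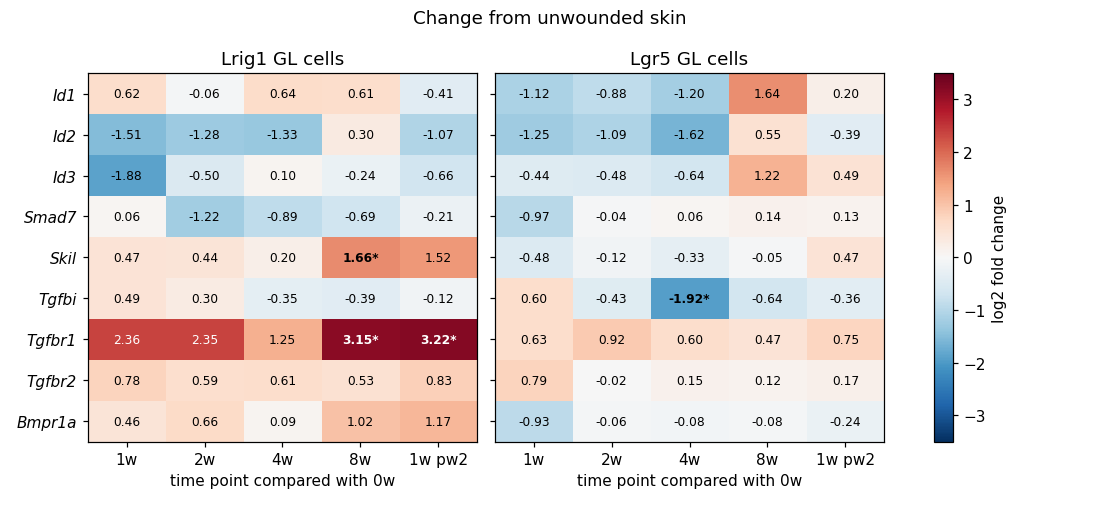
Log2 fold change from 0w for the 9 genes (rows) at each later time point (columns) in Lrig1 GL (left) and Lgr5 GL cells (right), from edgeR with 3 libraries per group; asterisks and bold mark called changes, with a size above 1 and an adjusted p under 0.05. Called changes are those of Skil at 8w pw1 and of Tgfbr1 at 8w pw1 and 1w pw2 in Lrig1 GL cells, and of Tgfbi at 4w pw1 in Lgr5 GL cells.

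In Lrig1 GL cells the calls fell on the receptor gene Tgfbr1 and the inhibitor gene Skil, both higher at 8w pw1 than at 0w. Those in Lgr5 GL cells fell on the target genes Id1, which rose from 4w to 8w pw1, and Tgfbi, which was lowest at 4w pw1. Against 0w, a call needed an adjusted p under 0.05 together with a change larger than 1 on the log2 scale, and between later time points with the adjusted p alone. Across the time course 1 of 9 genes was called for Lrig1 GL cells, where 1.63% of all tested genes were, and 2 of 9 in Lgr5 GL cells, against 1.13%. For Lrig1 GL cells 2 of 9 were called at 8w pw1 (2.82% of all genes), 1 of 9 at 1w pw2 (1.23%) and 1 of 9 between 4w and 8w pw1 (3.72%). For Lgr5 GL cells 1 of 9 was called at 4w pw1 against 0w (0.155%), 1 of 9 between 1w and 4w pw1 (3.15%) and 1 of 9 between 4w and 8w pw1 (0.327%). With 9 genes, a single call stands for a large share, and these counts are a description. Over the 9 genes the median log2 fold change from 0w lay between -0.12 and 0.53 for Lrig1 GL and between -0.48 and 0.18 for Lgr5 GL cells. The median over all tested genes lay between -0.06 and -0.01 and between -0.08 and 0.03.

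Other comparisons within a population gave 0 calls by the edgeR quasi-likelihood test. In Lrig1 GL cells this held at 1w pw1 (0.217% of all genes called), where 3 of 9 had an unadjusted p under 0.05 and the likelihood ratio test and DESeq2 each called Tgfbr1 and Id3. It held at 2w pw1 (0% of all genes), with 1 of 9 at an unadjusted p under 0.05 and Tgfbr1 called by DESeq2, and at 4w pw1 (0.0419%), with 0 of 9 by any of the 4 tools. Lrig1 GL cells at 1w pw2 gave 0 calls against 1w pw1 (0% of all genes), with 3 of 9 unadjusted and none by another tool, and 0 against 8w pw1 (0.00699%), with 0 of 9 unadjusted. Between 1w and 4w pw1 there were 0 calls (0% of all genes), 2 of 9 unadjusted, and DESeq2 called Id3. Of all 14306 genes, 1580 had an unadjusted p under 0.05 at 1w pw1, 1499 at 2w pw1 and 1197 at 4w pw1. At 1w pw2 these were 1269 against 1w pw1 and 818 against 8w pw1, and between 1w and 4w pw1 1211. The likelihood ratio test called 287 of all genes at 1w pw1, and DESeq2 343. DESeq2 called 261 at 2w pw1 and 119 between 1w and 4w pw1. For Lgr5 GL cells there were 0 calls at 1w pw1 (1.29% of all genes), 3 of 9 unadjusted, with Id1 called by the likelihood ratio test and Id1 and Id2 by DESeq2. At 2w pw1 (0% of all genes) 2 of 9 were unadjusted and no tool made a call, and at 1w pw2 (0%) 0 of 9 were. At 8w pw1 against 0w (0%) 3 of 9 had an unadjusted p under 0.05, and the likelihood ratio test and DESeq2 called Id1. Lgr5 GL cells at 1w pw2 against 1w pw1 (0.266% of all genes) had 4 of 9 unadjusted, with Id1 called by the likelihood ratio test and Id1 and Tgfbi by DESeq2, and against 8w pw1 (0%) 2 of 9, with Id1 called by DESeq2. Calls by limma-voom in all of these comparisons were 0. Of the 18025 genes of Lgr5 GL cells, 3353 had an unadjusted p under 0.05 at 1w pw1. At 2w and 8w pw1 these were 1584 and 1070. At 1w pw2 they were 1157 against 0w, 3026 against 1w pw1 and 691 against 8w pw1. The likelihood ratio test called 1182 genes at 1w pw1, 35 at 8w pw1 and 765 for 1w pw2 against 1w pw1. DESeq2 called 1425, 68 and 980 there, and 18 for 1w pw2 against 8w pw1.

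The receptor gene Tgfbr1 rose in Lrig1 GL cells. At 0w its level was 4.62, 28.4 and 14.1 CPM in the 3 libraries. At 8w pw1 it was 190, 112 and 122 CPM, and at 1w pw2 it was 65.1, 162 and 218 CPM. Every library of both later time points lay above every library at 0w. The log2 fold change from 0w was 3.15 ± 0.73 (SE, n = 3 against 3) at 8w pw1, with an adjusted p of 0.0338, and 3.22 ± 0.73 at 1w pw2, with an adjusted p of 0.0389. Libraries at 1w pw1 (68.3, 114 and 63.2 CPM) and 2w pw1 (70.2, 33.4 and 140 CPM) also lay above those at 0w, with log2 fold changes of 2.36 and 2.35 and adjusted p of 0.207 and 0.267. At 4w pw1 the values were 33.9, 10.3 and 68.3 CPM and overlapped those at 0w. Across the time course Tgfbr1 had an adjusted p of 0.077. The 0w library at 4.62 CPM held 9 reads of Tgfbr1. A limit set by a count of 3 covers counting error only. Tgfbr1 in Lgr5 GL cells stayed between 5.51 and 72 CPM, and each later time point overlapped 0w.

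Tgfbr2, the partner of Tgfbr1, was not called in any comparison. It lay between 25.7 and 120 CPM in Lrig1 GL and between 21 and 108 CPM in Lgr5 GL libraries. Its largest log2 fold change from 0w was 0.83 ± 0.51 (SE) in Lrig1 GL cells at 1w pw2, with an adjusted p of 0.392, and 0.79 ± 0.47 in Lgr5 GL cells at 1w pw1, with an adjusted p of 0.371. Its Lrig1 GL libraries at 1w pw1 and at 1w pw2 lay above those at 0w. Bmpr1a, the BMP type I receptor gene, spread widely in Lrig1 GL cells at 0w, with 21, 121 and 174 CPM. At 8w pw1 it was 228, 218 and 196 CPM and at 1w pw2 168, 284 and 260 CPM, and only the 8w pw1 libraries all lay above those at 0w. The log2 fold changes of 1.02 ± 0.59 (SE) and 1.17 ± 0.59 had adjusted p of 0.306 and 0.296. Bmpr1a in Lgr5 GL cells was 91.7, 120 and 92 CPM at 0w and 52.2, 43 and 64.2 CPM at 1w pw1, where all 3 libraries lay below 0w (log2 fold change -0.93 ± 0.40, adjusted p 0.227). It overlapped 0w at all later time points.

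**Figure D2:**
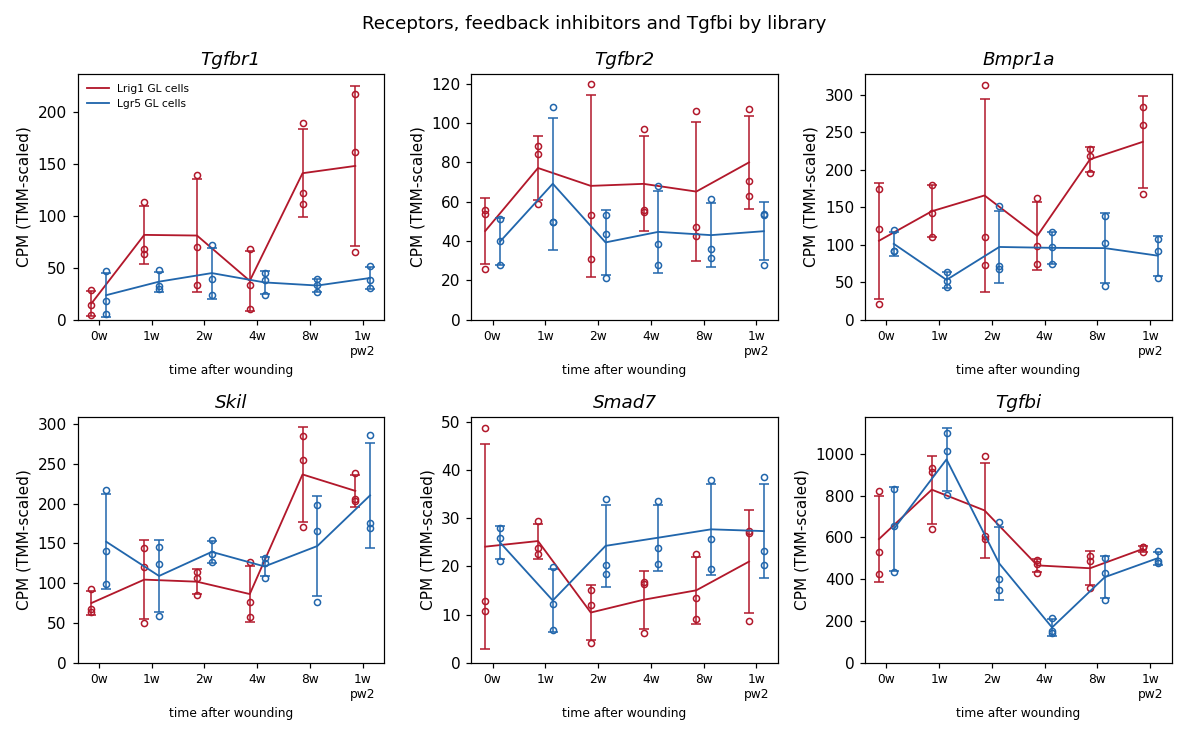
TMM-scaled CPM of the 3 receptor genes, the inhibitors Skil and Smad7, and Tgfbi in each library (open circles) by time point, with the mean (line) and SD (bars) of 3 libraries, for Lrig1 GL (red) and Lgr5 GL cells (blue); each panel has its own linear axis from 0. In Lrig1 GL cells Tgfbr1 and Skil stand highest at 8w pw1 and 1w pw2, and in Lgr5 GL cells Tgfbi is lowest at 4w pw1.

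Among the inhibitors, Skil also rose in Lrig1 GL cells. It measured 64.2, 93 and 67.9 CPM at 0w, and 255, 170 and 285 CPM at 8w pw1, where all 3 libraries lay above 0w. The log2 fold change at 8w pw1 was 1.66 ± 0.38 (SE, n = 3 against 3), with an adjusted p of 0.034. Levels at 1w pw2 were 206, 239 and 203 CPM, again above all libraries at 0w, but the adjusted p of 0.0571 missed the threshold (log2 fold change 1.52 ± 0.38). At 4w pw1 Skil was 75.7, 57.2 and 126 CPM, and the step from there to 8w pw1 was 1.45 ± 0.38 on the log2 scale, with an adjusted p of 0.0441. Across the time course its adjusted p was 0.0485. Skil in Lgr5 GL cells lay between 58.1 and 286 CPM and overlapped 0w at each time point.

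Smad7, the inhibitory Smad, lay between 4.05 and 48.7 CPM in Lrig1 GL and between 6.85 and 38.5 CPM in Lgr5 GL libraries. At 0w in Lrig1 GL cells 1 library at 48.7 CPM stood above the other two, at 10.8 and 12.8 CPM. No comparison called Smad7. In Lgr5 GL cells all 3 libraries at 1w pw1 (6.85, 19.8 and 12.1 CPM) lay below those at 0w (21.1, 28 and 25.8 CPM), with a log2 fold change of -0.97 ± 0.47 (SE) and an adjusted p of 0.279.

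The high levels of Skil and Tgfbr1 at 8w pw1 and 1w pw2 in Lrig1 GL cells went with a shift in the base composition of the libraries. At 1w pw1, where Tgfbr1 was 68.3, 114 and 63.2 CPM, mean GC content was 48.1 to 49.3%, against 48.9 to 49.3% at 0w. At 2w pw1 library c had the lowest mean GC content (46.7%) and the highest Tgfbr1 and Skil, 140 and 114 CPM. At 4w pw1 library c likewise had the lowest (47.9%) and the highest levels, 68.3 and 126 CPM. The library with the lowest GC content had the highest level of Tgfbr1 alone at 8w pw1, and of Skil alone at 1w pw2. At 0w and 1w pw1 it had the highest level of neither gene. Skil and Tgfbr1 each have a GC content of 41% over their longest transcript. Bmpr1a has 41.3%, and the median over the genes of that table is 48.7%. The Lrig1 GL libraries at 8w pw1 had the lowest mean GC content of counted genes (45.4 to 46%) and those at 1w pw2 had 46.2 to 47.1%. When each library's trend on gene GC content was removed, the log2 fold change of Skil at 8w pw1 was 0.52 (adjusted p 0.48) and that of Tgfbr1 was 2.07 (adjusted p 0.104), and that of Tgfbr1 at 1w pw2 was 2.32 (adjusted p 0.108). The same step moved the median over all genes at 8w pw1 from -0.01 to -0.24. With 2 surrogate variables in the model the 8w pw1 values were 1.02 for Skil (adjusted p 0.697) and 1.11 for Tgfbr1 (adjusted p 0.761). By limma-voom neither gene was called: Skil at 8w pw1 had 1.62 (adjusted p 0.0713), and Tgfbr1 had 3.20 at 8w pw1 (adjusted p 0.109) and 3.29 at 1w pw2 (adjusted p 0.133). For 8w pw1 and 1w pw2 against 0w, the part of base composition cannot be told apart from the time point. All libraries of these later time points had a lower mean GC content than those at 0w. GC content also varied within time points, and its part there was not tested. The summed basal keratinocyte markers were also lower at 8w pw1 (12100 to 18300 CPM) than at 0w (20100 to 24100 CPM), and at 1w pw2 they were 16700 to 18500 CPM. The summed lower HF markers were 680 to 898 CPM at 8w pw1 and 278 to 588 CPM at 1w pw2, against 1410 to 2370 CPM at 0w. The part of these markers was not tested.

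**Figure D3:**
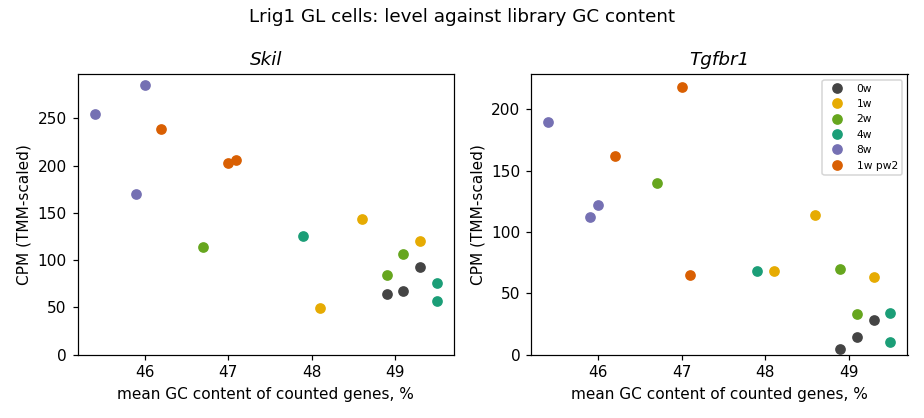
TMM-scaled CPM of Skil (left) and Tgfbr1 (right) in each of 18 Lrig1 GL libraries against the mean GC content of the genes counted in that library, in percent, coloured by time point. Libraries of 8w pw1 (45.4 to 46%) and 1w pw2 (46.2 to 47.1%) lie to the left with most of the high levels, and those of 0w (48.9 to 49.3%) lie to the right with low levels.

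Neither gene's call was steady when 1 library was left out. The call of Skil at 8w pw1 was lost without the 0w libraries 1 or 3 or without any of the 8w pw1 libraries (1.5 to 1.83 on the log2 scale, adjusted p 0.0641 to 0.106). The call of Tgfbr1 was lost without the same libraries (2.72 to 3.28, adjusted p 0.0754 to 0.106), and at 1w pw2 without the 0w libraries 1 or 3 or the 1w pw2 libraries 2 or 3 (2.79 to 3.16, adjusted p 0.0817 to 0.16). Without the 0w library 2 both Tgfbr1 calls held, with log2 fold changes of 3.92 at 8w pw1 and 3.99 at 1w pw2. The step of Skil from 4w to 8w pw1 was lost without the 4w pw1 libraries a or b or any 8w pw1 library (1.21 to 1.63, adjusted p 0.0803 to 0.194). Its call across the time course was lost without 15 of the 18 libraries in turn (adjusted p 0.0503 to 0.124), all but the 1w pw1 library 1, the 2w pw1 library c and the 4w pw1 library c. With the 8w pw1 libraries left out of the fit, 0 of 9 genes were called across the time course (Skil adjusted p 0.253) and 0 of 9 at 1w pw2 (Tgfbr1 log2 fold change 3.21, adjusted p 0.0645).

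In Lgr5 GL cells, Id1 was lowest from 1w to 4w pw1 and rose between 4w and 8w pw1. Its level was 217, 150 and 114 CPM at 0w, and 62.3, 106 and 54.6 CPM at 1w pw1. It was 117, 70 and 75.1 CPM at 2w pw1 and 66.1, 73.3 and 70.6 CPM at 4w pw1. At 8w pw1 it reached 342, 647 and 511 CPM, and at 1w pw2 it was 201, 232 and 121 CPM. All libraries at 1w and 4w pw1 lay below 0w, all at 8w pw1 lay above every other Lgr5 GL library, and those at 1w pw2 overlapped 0w. Across the time course Id1 had an adjusted p of 0.00201, and between 4w and 8w pw1 it rose by 2.84 ± 0.37 (log2, SE, n = 3 against 3), with an adjusted p of 0.00406. Against 0w the value at 8w pw1 was 1.64 ± 0.35 with an unadjusted p of 0.000189 and an adjusted p of 0.463, in a comparison where no gene of the table was called. From 8w pw1 to 1w pw2 the difference was -1.43 ± 0.35, with an unadjusted p of 0.000646 and an adjusted p of 1. The changes at 1w and 4w pw1, -1.12 ± 0.35 and -1.20 ± 0.35, had adjusted p of 0.102 and 0.222. Both calls of Id1 held without each library in turn, with adjusted p of 0.00151 to 0.0149 across the time course and 0.00493 to 0.0304 between 4w and 8w pw1, and with every other alternative tried for them. Over the step from 4w to 8w pw1 the summed basal keratinocyte markers also went from 9930 to 12800 CPM up to 28500 to 30100 CPM, and the summed lower HF markers from 1090 to 1740 CPM up to 1770 to 2880 CPM. Their part in the rise of Id1, and in the courses of Id2 and Id3, was not tested.

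Id2 and Id3 followed a like course in Lgr5 GL cells without a call. Id2 was 294, 357 and 115 CPM at 0w, 54.5, 90.1 and 104 CPM at 4w pw1, and 201, 543 and 375 CPM at 8w pw1. All libraries at 4w pw1 lay below those at 0w and at 8w pw1, while 8w pw1 overlapped 0w. The step from 4w to 8w pw1 was 2.16 ± 0.46 (SE) on the log2 scale, with an adjusted p of 0.0515, and across the time course the adjusted p was 0.0584. Id3 was 154, 154 and 141 CPM at 0w, 25.3, 164 and 96.2 CPM at 4w pw1, 226, 377 and 440 CPM at 8w pw1, and 224, 208 and 200 CPM at 1w pw2. All libraries of the last 2 time points lay above 0w. Between 4w and 8w pw1 Id3 differed by 1.85 ± 0.48, with an adjusted p of 0.128. Both were called between 4w and 8w pw1 and across the time course by the likelihood ratio test, DESeq2 and limma-voom. Of all genes, these tools called 269, 326 and 325 for that step, and 1975, 1684 and 353 across the time course. Over the 18 Lgr5 GL libraries Pearson's r of log2 CPM was 0.84 between Id1 and Id2, 0.78 between Id1 and Id3 and 0.78 between Id2 and Id3, and after each time point's mean was removed it was 0.53, 0.32 and 0.48. These points share library, depth and scaling. The same pairs in Lrig1 GL cells had r of -0.08, 0.12 and 0.32.

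**Figure D4:**
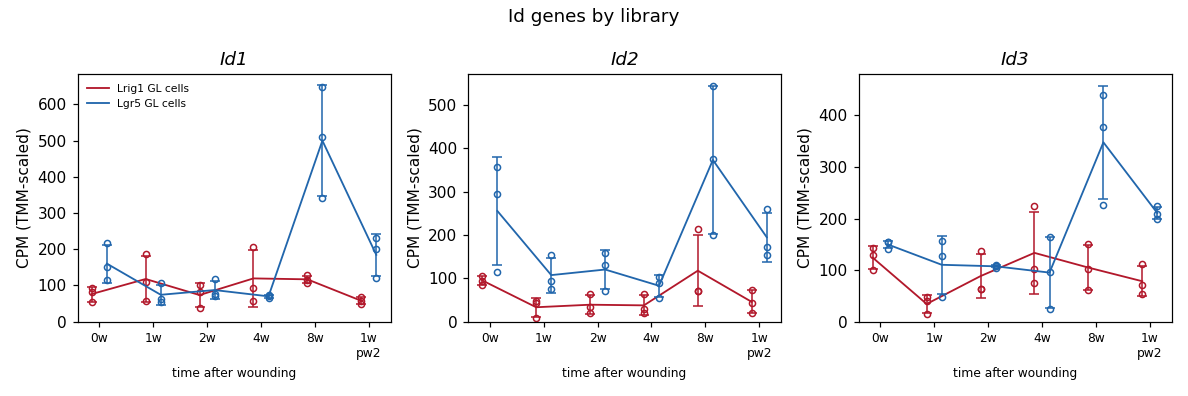
TMM-scaled CPM of Id1, Id2 and Id3 in each library (open circles) by time point, with the mean (line) and SD (bars) of 3 libraries, for Lrig1 GL (red) and Lgr5 GL cells (blue), on linear axes from 0. In Lgr5 GL cells all 3 genes have their highest mean at 8w pw1, where Id1 lies between 342 and 647 CPM.

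In Lrig1 GL cells the Id genes gave other courses and no call. Id1 lay between 37.5 and 207 CPM and overlapped 0w (92.9, 83.2 and 53.2 CPM) at all time points but 8w pw1 (128, 107 and 116 CPM), where its log2 fold change was 0.61 ± 0.49 (SE, adjusted p 0.469). Id2 was 84.7, 106 and 94.8 CPM at 0w and 8.54, 47.5 and 43.9 CPM at 1w pw1. Its libraries at 1w, 2w and 4w pw1 and at 1w pw2 all lay below 0w, with log2 fold changes of -1.51, -1.28, -1.33 and -1.07 and adjusted p of 0.416, 0.514, 0.605 and 0.394. Id3 was 100, 143 and 129 CPM at 0w and 40.8, 47.5 and 14.8 CPM at 1w pw1, where all 3 libraries lay below. Its log2 fold change there was -1.88 ± 0.53 (SE), with an unadjusted p of 0.00245 and an adjusted p of 0.178, and both the likelihood ratio test and DESeq2 called it. By 4w pw1 Id3 was at 74.2, 224 and 102 CPM and overlapped 0w.

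Tgfbi, the matrix target gene, had the only called fall of the set, in Lgr5 GL cells by the edgeR test. It was 832, 655 and 434 CPM at 0w, 1101, 805 and 1015 CPM at 1w pw1, and 150, 215 and 141 CPM at 4w pw1. All libraries at 4w pw1 lay below every other Lgr5 GL library. The log2 fold change at 4w pw1 was -1.92 ± 0.31 against 0w (SE, n = 3 against 3, adjusted p 0.0193) and -2.53 ± 0.32 against 1w pw1 (adjusted p 0.00221), and across the time course the adjusted p was 0.00747. At 8w pw1 (299, 430 and 500 CPM) and 1w pw2 (487, 536 and 478 CPM) it overlapped 0w. Tgfbi in Lrig1 GL cells lay between 359 and 992 CPM, was 474, 431 and 493 CPM at 4w pw1, and overlapped 0w at each time point.

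The Lgr5 GL libraries at 4w pw1 also had the lowest summed basal keratinocyte markers, 9930 to 12800 CPM against 24200 to 33000 CPM at 0w and 28500 to 30100 CPM at 8w pw1. Krt15 had the highest median level among these markers, and its part in the sum was not separated. At 2w pw1 that sum was 12000 to 20600 CPM, and Tgfbi was 676, 346 and 403 CPM. In bulk samples, fewer cells of a type and less RNA per cell cannot be told apart, and the part of the marker change in the fall of Tgfbi was not tested. The call of Tgfbi at 4w pw1 against 0w was lost without the 0w libraries a or b or the 4w pw1 libraries a or c (log2 fold change -1.92 to -1.69, adjusted p 0.0526 to 0.16). Against 1w pw1 it held without each library (adjusted p 0.00356 to 0.0197). Without the 4w pw1 libraries, 1 of 9 genes (Id1) was called across the time course, and Tgfbi had an adjusted p of 0.129.

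Between the 2 unwounded populations, levels were compared in 1 model over all 36 libraries, with 16153 genes. All 9 genes had lower fitted levels in Lrig1 than in Lgr5 GL cells, except that Tgfbr2 was at 0.08 when the GC trend was removed, with a median log2 difference of -0.62 where the median over all genes was -0.04, but 0 of 9 were called, against 2.9% of all genes. Of the 9, 3 had an unadjusted p under 0.05, as did 2826 of all 16153 genes. The 3 were Id1 (-1.42 ± 0.43, SE, adjusted p 0.0664), Id2 (-1.77 ± 0.57, adjusted p 0.0897) and Skil (-1.37 ± 0.39, adjusted p 0.0517). Libraries of the 2 populations did not overlap for these 3, nor for Id3 (-0.62, adjusted p 0.557). The share of all genes without overlap was not counted. On the joint scale Skil was 55.5, 80.8 and 60.3 CPM in Lrig1 GL and 156, 110 and 243 CPM in Lgr5 GL cells. The likelihood ratio test and DESeq2 called Id1, Id2 and Skil, with 983 and 1121 of all genes called, and limma-voom called none of the 9, with 302. With DESeq2 size factors Skil alone was called (-1.39, adjusted p 0.049). Population cannot be told apart from any difference in how the 2 tables were made.

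Whether a change from 0w differed between populations was tested directly, and 0 of 9 genes passed at 1w pw1 (0.0495% of all genes), 2w pw1 (0%), 4w pw1 (0.0929%), 8w pw1 (1.11%) or 1w pw2 (0.155%). Those with an unadjusted p under 0.05 numbered 1, 0, 2, 2 and 1 of 9. Among all 16153 genes these were 2425, 1508, 1693, 2845 and 2097. The change of Skil at 8w pw1 was higher in Lrig1 GL cells by 1.77 ± 0.55 (log2, SE, 95% interval 0.70 to 2.84, adjusted p 0.0932) and that of Tgfbr1 by 2.75 ± 0.93 (0.93 to 4.57, adjusted p 0.118). At 4w pw1 the change of Tgfbi differed by 1.54 ± 0.41 (0.74 to 2.34, adjusted p 0.145) and that of Id1 by 1.80 ± 0.60 (0.62 to 2.98, adjusted p 0.271), both higher in Lrig1 GL cells. The likelihood ratio test called Tgfbi at 4w pw1 and Skil at 8w pw1, DESeq2 these and Tgfbr1 at 8w pw1, and limma-voom none at any time point. Of all genes, the likelihood ratio test called 149 at 4w pw1 and 693 at 8w pw1, and DESeq2 168 and 876. A difference between the populations was therefore not shown for any of the 9 genes by the edgeR test.

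Set against each other per length, as RPKM, which is CPM divided by exonic length in kilobases, levels at 0w were highest for Tgfbi, with 157 ± 54.1 (SD, n = 3) for Lrig1 GL and 169.8 ± 52.9 for Lgr5 GL cells. Its Lgr5 GL level lay within the spread of Id1. The Id genes followed. Id3, Id1 and Id2 had 69.3 ± 12.2, 65.9 ± 17.9 and 39.1 ± 4.46 RPKM in Lrig1 GL cells, and Id1, Id2 and Id3 had 138.4 ± 45.1, 104.8 ± 51.4 and 83.5 ± 4.18 RPKM in Lgr5 GL cells. Within each population neighbouring Id genes lay within each other's spread, apart from Id2 in Lrig1 GL cells. Bmpr1a had 16.6 ± 12.2 and 15.9 ± 2.56 RPKM and Skil 7.74 ± 1.62 and 15.7 ± 6.20 RPKM in Lrig1 GL and Lgr5 GL cells. Tgfbr2 (5.51 ± 2.06 and 4.85 ± 1.45), Smad7 (5.33 ± 4.72 and 5.53 ± 0.78) and Tgfbr1 (2.41 ± 1.83 and 3.62 ± 3.29 RPKM) were lowest, and these 3 did not differ beyond their spread at 0w. At 8w pw1 Tgfbr1 reached 21.7 ± 6.53 RPKM in Lrig1 GL cells, above Tgfbr2 at 7.95 ± 4.30 RPKM. Id1 at 8w pw1 in Lgr5 GL cells reached 431.2 ± 131.5 RPKM, above Tgfbi at 108.6 ± 27.2 RPKM.

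A list of 78 other genes of the 2 pathways put these values beside their surroundings. Of the 78, 55 were tested in Lrig1 GL cells. Against 0w the calls were Itgav, an integrin chain that takes part in the activation of latent TGF-β, higher at 8w pw1 (13.9, 104 and 77.5 CPM at 0w, 309, 434 and 348 CPM at 8w pw1, log2 fold change 2.48 ± 0.65, adjusted p 0.0479), and Sostdc1, a secreted BMP antagonist, lower at 1w pw2. Sostdc1 measured 1059, 1032 and 1058 CPM at 0w and 502, 508 and 329 CPM at 1w pw2, a log2 difference of -1.23 ± 0.29 (SE, adjusted p 0.0485). From 4w to 8w pw1 the type II BMP receptor gene Bmpr2 rose by 1.45 ± 0.34 and the integrin chain Itgb8 by 2.80 ± 0.69, while the cell cycle inhibitor gene Cdkn1a differed by -1.6 ± 0.40 (adjusted p 0.0289, 0.034 and 0.0348). Bmpr2 alone of the list was called across the time course (adjusted p 0.0307), with 113, 184 and 140 CPM at 0w and 384, 284 and 241 CPM at 8w pw1. No ligand, Smad or other inhibitor of the list was called in Lrig1 GL cells. At 8w pw1 and at 1w pw2, 1 of 55 was called, against 2.82% and 1.23% of all genes. From 4w to 8w pw1 2 were called higher and 1 lower (3.72%), and across the time course 1 (1.63%). Removing the GC trend took all calls at 8w pw1 from 404 to 85, and between 4w and 8w pw1 from 532 to 97. With 2 surrogate variables both were 0. The part of base composition in the calls of the list was not tested.

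Among the 77 listed genes tested in Lgr5 GL cells, the BMP ligand genes Bmp2 and Bmp6 were called. Bmp2 was 94.4, 100 and 56.5 CPM at 0w, 0, 1.68 and 7.4 CPM at 4w pw1, and 45.9, 98.7 and 62.6 CPM at 8w pw1. It fell by 4.74 ± 0.72 at 4w pw1 (adjusted p 0.014) and rose by 4.47 ± 0.72 from there to 8w pw1 (adjusted p 0.00915), and its adjusted p across the time course was 0.0103. Bmp6 was called across the time course (adjusted p 0.0271), with 18.4, 25.7 and 5.51 CPM at 0w, 1.96, 3.96 and 0 CPM at 1w pw1, and 42.8, 65.6 and 70.9 CPM at 8w pw1. Libraries of Bmp6 at 8w pw1 lay above all of those at 0w and 1w pw1. Gata3, a transcription factor gene of skin and HF, was 135, 178 and 140 CPM at 0w and 32.9, 59.4 and 39.2 CPM at 1w pw1 (log2 fold change -1.79 ± 0.28, adjusted p 0.0136), and rose to 160, 143 and 164 CPM at 1w pw2 (1.83 ± 0.28 against 1w pw1, adjusted p 0.0111). Between 1w and 4w pw1, 4 of the 77 were called, against 3.15% of all genes, and all 4 rose: the targets Nrep, Msx1 and Gata3 and the ligand gene Tgfb2. Of the 18 listed targets, 12 had a higher fitted level at 4w pw1. Nrep went from 34.2, 30.6 and 27.1 CPM to 264, 202 and 253 CPM (2.97 ± 0.45, adjusted p 0.00501) and then differed by -2.5 ± 0.44 at 8w pw1 (adjusted p 0.0151). Msx1 had 0 counts in all 3 libraries at 1w pw1 and 3.89, 22.6 and 3.36 CPM at 4w pw1. These were 4, 54 and 5 counts, where a count of 3 corresponds to 2.92, 1.26 and 2.02 CPM. Cdkn1a was called across the time course, with an adjusted p at the threshold. The other roles, receptors, Smads, inhibitors and latency proteins, had no call in Lgr5 GL cells.

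Between populations at 0w, 69 listed genes were tested and 6 were called, where 2.9% of all genes were, and all 6 were lower in Lrig1 GL cells: Eng, Smad1, Fstl1, Ltbp3, Col1a1 and Msx2. Smad1, a Smad that carries the BMP signal, differed by -1.77 ± 0.39 (log2, SE, adjusted p 0.0104), and Ltbp3, which binds latent TGF-β, by -2.0 ± 0.56 (adjusted p 0.044). Eng had 0 counts in all 3 Lrig1 GL libraries and 21 to 69 counts in those of Lgr5 GL cells. Col1a1 and Fstl1 are expressed strongly in fibroblasts, and the summed fibroblast markers, which hold Col1a1, were also lower in Lrig1 GL cells (12.3 to 45.5 against 254 to 612 CPM at 0w). Their part in these differences was not tested. For the change at 8w pw1, Itgav differed by 2.83 ± 0.72 (adjusted p 0.0483) and Cdkn1a by -2.08 ± 0.49 (adjusted p 0.034), Lrig1 GL minus Lgr5 GL. These were 1 higher and 1 lower of 69, against 1.11% of all genes.

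Genes with the most similar course were sought among 8592 genes, by the smaller of the 2 Pearson's r of log2 CPM over the 18 libraries of each population. For Id1 these were Ier3 (r of 0.59 for Lrig1 GL and 0.75 for Lgr5 GL cells) and Nr1d1 (0.57 and 0.60), and for Id2 Fgf1 (0.74 and 0.73) and Pdlim3 (0.71 and 0.70). Id3 was nearest to Zkscan14 (0.81 and 0.77) and Kank1 (0.74 and 0.71). Tgfbi was nearest to Lamb3 (0.72 and 0.76) and Itgb4 (0.81 and 0.69), of which Itgb4 is one of the 7 basal keratinocyte markers. Lgr4 was among the genes nearest to Skil (0.75 and 0.77), and Tgfbr1 lay nearest to Fbxw7 (0.81 in both) and Dse (0.77 and 0.78), and Bmpr1a to Rb1cc1 (0.75 in both) and Tcf12 (0.82 and 0.73). Lower values were found for Smad7, with Cramp1l (0.64 and 0.78) and Arhgap17 (0.63 and 0.64), and for Tgfbr2, with Rab35 (0.61 and 0.53) and Bysl (0.53 and 0.56). Libraries share depth, scaling and base composition across these genes, and the values are a description.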

How the data were processed

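Tail epidermal tdTomato+ cells were sorted and their RNA was sequenced in small bulk samples by a modified Smart-seq2 protocol, which marks neither strand nor single molecules. The authors trimmed reads with Trim Galore 0.5.0, aligned them to mm10/GRCm38 with HISAT2 2.2.01 and counted exonic reads per gene name with featureCounts 1.6.12, and the deposited values are raw counts. Of the columns, 15 matched 1 labelled sample and 21 matched a group only, whose libraries are called a, b and c.

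Genes were filtered with filterByExpr (minimum count 10), scaled by TMM and tested in R 4.3.3 with the quasi-likelihood test of edgeR 4.0.16 on all genes and all libraries of a population, with a prior count of 0.125 and Benjamini-Hochberg adjustment. A second model held both populations. The genes named are the 9 members, the called genes of a list of 78 pathway genes and the 2 most similar genes of each member, of which 1 is not reported here. The members and lists were chosen with earlier results of these data known. Alternatives were edgeR's likelihood ratio test, DESeq2 1.42.0, limma 3.58.1 (voom with quality weights), 2 surrogate variables (sva 3.50.0), DESeq2 size factors, no filter, no fold minimum, Gm12415 left out, the GC trend removed, the replicate number as a block and each library left out. Leaving out the Lrig1 8w or the Lgr5 4w libraries was chosen after seeing the data. In simulated counts for Lrig1 GL cells at 8w against 0w, over 13717 genes, 72% of changes of 3 and 91% of changes of 5 on the log2 scale were recovered. For the difference between populations in the change at 8w, over 15581 genes, these were 44% and 94%. Smaller changes and a shift in base composition were not simulated. These shares therefore say nothing of the smaller changes among the 9 genes. RPKM used exonic lengths from GENCODE release M21. Replicate numbers did not pair libraries.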

Additional observations from a re-analysis of the deposited data

How the results depend on the processing

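Counts are of the 9 genes. With the likelihood ratio test they were 2 at 1w pw1, 2 at 1w pw2 and 2 over the time course in Lrig1 GL cells; in Lgr5 GL cells 1 at 1w pw1, 2 at 4w pw1, 1 at 8w pw1, 1 for 1w pw2 against 1w pw1, 4 for 8w against 4w and 4 over the time course; 3 between populations at 0w, and 1 for the change at 4w and 1 at 8w. Among all 14306 genes of Lrig1 GL cells this test called 287, 825 and 1999 in the same order. Among all 18025 of Lgr5 GL cells it called 1182, 268, 35, 765, 269 and 1975. Between populations, among 16153, it called 983, 149 and 693. DESeq2 gave 2 at 1w pw1, 1 at 2w pw1 and 2 at 1w pw2 in Lrig1 GL cells. It gave 1 for 4w against 1w, 3 for 8w against 4w and 2 over the time course. All genes called by DESeq2 were 343, 261, 1042, 119, 1680 and 1880. In Lgr5 GL cells it gave 2 at 1w pw1, 2 at 4w pw1, 1 at 8w pw1, 2 and 1 for 1w pw2 against 1w and 8w pw1, 4 for 8w against 4w and 4 over the time course, with 3 between populations at 0w and 1 and 2 for the changes at 4w and 8w. With limma-voom the Lrig1 GL counts at 8w pw1, at 1w pw2 and over the time course were 0, and the Lgr5 GL counts for 8w against 4w and over the time course were 4. With 2 surrogate variables, or with the GC trend removed, the Lrig1 GL counts at 8w pw1, at 1w pw2, for 8w against 4w and over the time course were 0, and the Lgr5 GL count for 8w against 4w was 3 or 2. DESeq2 size factors gave 1 between populations at 0w (464 of all genes). No filter gave 0 for 8w against 4w and over the time course in Lrig1 GL cells (348 and 149 of all genes).

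With the replicate number as a block, the Lrig1 GL counts at 8w pw1, at 1w pw2, for 8w against 4w and over the time course were 0, and the Lgr5 GL counts were 0 at 4w pw1 and 1 over the time course. All genes called were 28, 54, 0 and 16 in Lrig1 GL cells, and 8 and 46 in Lgr5 GL cells. The number does not mark a pairing: same-numbered libraries of different groups had a mean correlation of their deviations of -0.0064 over 33 pairs in Lrig1 GL and 0.0039 over 32 pairs in Lgr5 GL cells. Without the 8w libraries the Lrig1 GL counts at 1w pw2 and over the time course were 0 (102 and 5 of all genes). Without the 4w libraries the Lgr5 GL count over the time course was 1 (124 of all genes).

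With each library left out in turn, counts ran from 0 to 2 at 8w pw1, 0 to 1 at 1w pw2, 0 to 1 for 8w against 4w and 0 to 1 over the time course in Lrig1 GL cells, and from 0 to 1 at 4w pw1, 1 to 2 for 8w against 4w (Id2 joined Id1 without the 8w library a) and 2 to 3 over the time course in Lgr5 GL cells. No called value changed direction under these settings. The causes of these differences were not tested. Some counts at 0w were low: 9 to 70 for Tgfbr1 and 20 to 120 for Smad7 in Lrig1 GL libraries. In Lgr5 GL libraries they were 16 to 209 and 75 to 135. The part of depth in these counts was not tested.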
